A study of Mus musculus with 6 samples.

Results

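The enzymes that write and erase chemical marks on histones and on DNA were followed in TM3 cells, a mouse testicular somatic cell line of Leydig cell origin. The members were the mouse genes named Hdac, Sirt, Kdm, Kmt, Tet, Ezh or Dnmt with a number and, in some, a letter, together with Uhrf1, Suz12 and Eed, while Kdm5c, Kdm5d and Kdm6a were left out. Probes were assigned to genes by accession alone, which gave 52 member genes on 102 probes among 23462 gene symbols. A total of 41 members were among the 13138 genes that could be tested, and all 52 are accounted for in what follows. No probe carried a matching accession for Kmt2a or Dnmt3c, which are not analysed here.

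The cells came from 2 groups, 3 samples exposed for 24 h to 10 µM 4-nitrophenol (nPNP, also written PNP) and 3 control samples at 0 µM, treatment "None" in the labels. 4-Nitrophenol is a nitrated phenol released from the insecticide parathion and present in diesel exhaust. The labels give the same line and sex for both groups, and do not say whether the samples of a group were separate cultures, so the spread behind each p-value may be technical. The question was which genes differ after exposure.

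Acetyl groups on histone tails are removed by deacetylases, the zinc-dependent HDACs and the NAD-dependent sirtuins, and deacetylation is generally linked to repression. Lysine methylation is written by KMT and EZH enzymes and erased by KDM enzymes, and its effect depends on the residue. DNMT enzymes methylate cytosine in CG pairs and TET enzymes oxidise the methyl group. In the testis, this machinery is best known for its part in germ cell development, and chromatin state at steroidogenic genes also bears on hormone output in Leydig cells.

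Each sample had its own 1-colour Agilent array, and all 6 arrays shared 1 slide and 1 scan. The nPNP arrays had 59.9% to 62.6% of spots well above background, against 61.8% to 62.3% on the control arrays, and no member spot was saturated. Of the Leydig markers, Star, Nr5a1 and Scarb1 (3 of 7 on the array) were above background on every array, while Cyp11a1, the first enzyme of steroid synthesis, and Lhcgr, the luteinising hormone receptor, were above background on none. All 5 peritubular myoid markers, 4 of 8 Sertoli markers, 4 of 6 macrophage markers, 3 of 7 germ cell markers and 0 of 4 endothelial markers were above background on every array, with Cdh5, Kdr and Tek on none. Spots that the scanner software marked as outliers were more frequent after exposure, at 51 of 306 member spots (16.7%) on nPNP arrays against 27 of 306 (8.82%) on control arrays, and at 12.3% of all spots on nPNP arrays against 7.75% on control arrays. Such spots were left out of the tests.

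None of the 41 enzymes changed after nPNP exposure at an adjusted p below 0.05 in limma, whose call share over all 13138 genes was also 0%. The measured differences were small. The median member stood 0.014 lower on the log2 scale in nPNP cells, against 0.043 higher for the median of all genes, and the members ranged from -0.42 (Hdac4) to 0.26 (Kdm7a). The difference was smaller than 0.1 in size for 27 of 41 members. These differences are of the scaled log2 signal, the log2 of the processed signal minus the 75th percentile of its array, and always nPNP minus control. In processed signal, that percentile was lower on every nPNP array (4503 to 5286) than on every control array (5362 to 5798).

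The 95% intervals describe the probe used for each gene and the spread between these arrays, which may be technical. Other probes of a gene could differ, as given below. For 37 of 41 members the 95% interval lay within 1.5-fold in either direction, where 84.4% of all genes did so, and for all 41 it lay within 2-fold. The median half-width of the interval was 0.27 for the members and 0.28 for all genes. At an unadjusted p below 0.05, 3 of 41 members passed (7.32%), and 6.52% of all genes did, so the members' share was near that of the array as a whole. Hdac4 and Hdac10 passed with lower signals, where 1.49% of all genes did, and Kdm7a with higher signals, where 5.02% of all genes did. Differences above 0 were found for 19 of 41 members and for 63.0% of all genes. Both shares depend on the scaling, since other scalings moved the median of all genes from 0.043 to between -0.018 and 0.030. The median of the members minus that of all genes was -0.057, and between -0.057 and -0.027 under those scalings.

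**Figure D1:**
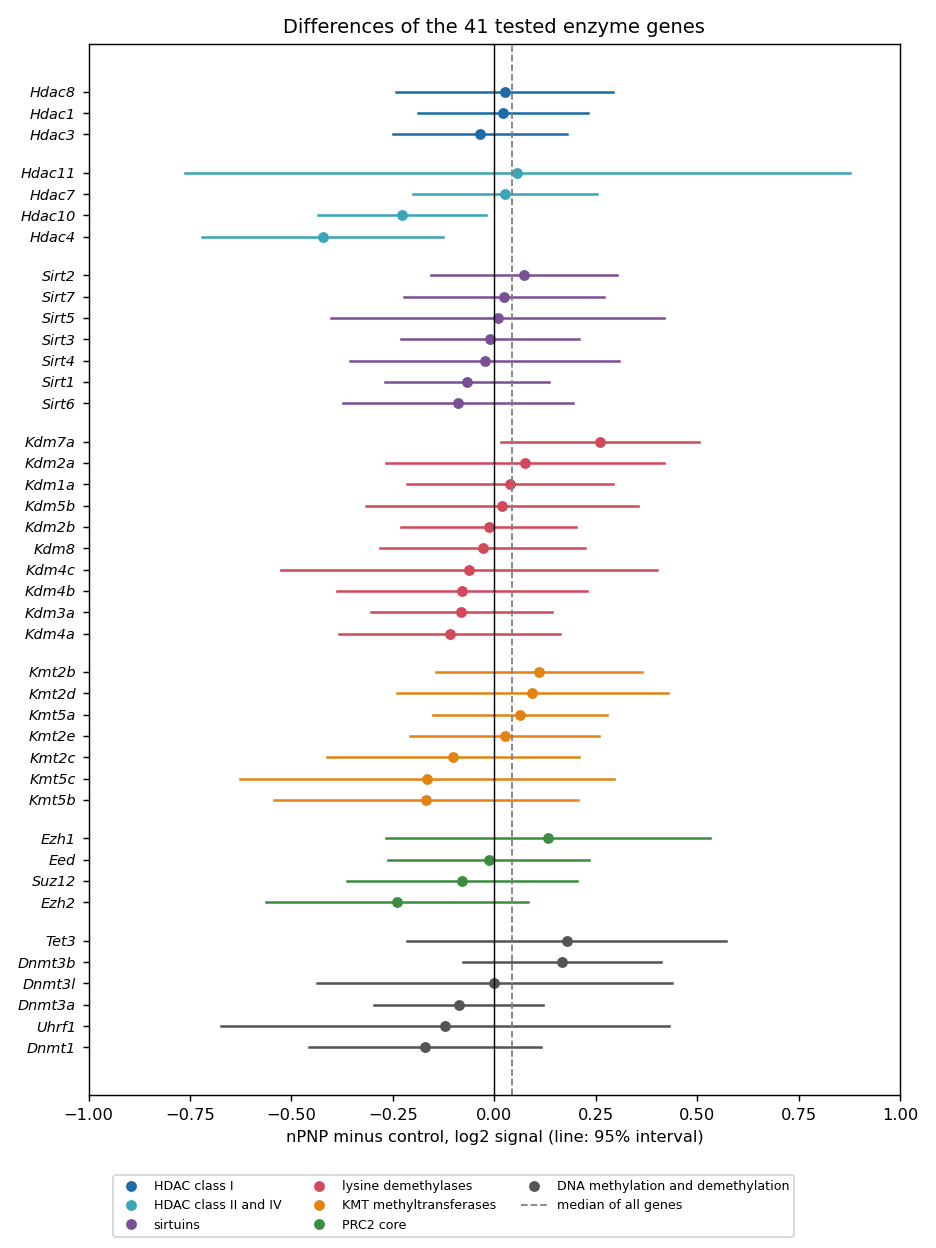
Difference in scaled log2 signal, nPNP minus control, for the 41 tested enzyme genes grouped by role, with lines for the 95% interval from limma and a dashed line at the median of all genes, 0.043. The intervals of Hdac4, Hdac10 and Kdm7a lie off 0, and the widest interval, of Hdac11, runs from -0.76 to 0.88.

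Class I deacetylases, the mainly nuclear enzymes of the corepressor complexes, showed no difference beyond the spread between arrays on the probes used. Hdac1, a catalytic subunit shared by several of these complexes, had scaled log2 signals of 2.00, 2.04 and 1.93 on the nPNP arrays, against 1.96, 1.90 and 2.04 on the control arrays. The groups overlapped fully and the difference was 0.022, with a 95% interval of -0.19 to 0.23. A second Hdac1 probe gave a difference of -0.33 with limma's unadjusted p at 0.0951, so the probes of this gene did not share a sign. With its 1 flagged spot kept, nPNP arrays 1 and 3 lay below all control arrays on this probe and nPNP array 2 among them, and the difference was then -0.45 with limma's unadjusted p at 0.0263. Hdac3, the enzyme of the nuclear receptor corepressor complex, had -3.19, -3.31 and -3.30 on the nPNP arrays, against -3.31, -3.16 and -3.22 on the control arrays. That probe stood in for a brighter one with flagged spots, which with those spots kept gave 0.03, 0.03 and 0.47 on the nPNP arrays, against 0.29, 0.24 and 0.16 on the control arrays. Both Hdac3 probes overlapped between groups, with differences of -0.036 for the probe used and -0.054 for the brighter one.

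Hdac2, the close paralogue of Hdac1, had flagged spots on its only probe and was not tested. With the flagged spots kept, its signals were -0.19, -0.22 and -0.45 in nPNP cells, against -0.33, -0.38 and -0.13 in control cells, and the groups overlapped. Hdac8, which acts on cohesin, differed by 0.026, with an interval of -0.24 to 0.29.

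Class II and IV deacetylases held both members that passed an unadjusted p below 0.05 with lower signals. Hdac4, a class IIa enzyme that shuttles between nucleus and cytoplasm and works mainly as a corepressor scaffold, had -1.01 and -1.21 on nPNP arrays 2 and 3, against -0.57, -0.82 and -0.67 on the control arrays. All values used in nPNP cells lay below all values in control cells, and the flagged spot of nPNP array 1, left out of the fit, read -0.92 and was also below them. The difference was -0.42 ± 0.13 (SE), a signal 0.746 times that of control cells, with limma's unadjusted p at 0.0116 and adjusted p at 0.740. It was -0.39 within the odd and -0.39 within the even slide columns.

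The other Hdac4 probes gave a mixed picture. With flagged spots kept, the second probe read -1.24, -1.44 and -1.47 in nPNP cells, against -1.22, -1.14 and -1.03 in control cells, again without overlap. The dimmest probe read -1.87, -2.18 and -2.19 in nPNP cells, against -2.15, -2.02 and -2.24 in control cells, and its groups overlapped, with a difference of 0.055. Without nPNP array 2 or 3, the first probe had too few unflagged values left and the gene passed to this dimmest probe, at 0.10 and 0.11. Restricting to genes complete on all 6 arrays had the same effect, at 0.055, and normexp background correction gave -0.18.

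The promoter of Hdac4 is shown because the gene had the lowest p among the members and because CG pairs in promoters are where DNMT and TET enzymes can act, although methylation was not measured here. It comprises the 250 bases before the annotated start (RefSeq, GRCm38.p6, chr1:92180342-92180591, minus strand), written 5′ to 3′ with the CG pairs in capitals.
Hdac4 promoter: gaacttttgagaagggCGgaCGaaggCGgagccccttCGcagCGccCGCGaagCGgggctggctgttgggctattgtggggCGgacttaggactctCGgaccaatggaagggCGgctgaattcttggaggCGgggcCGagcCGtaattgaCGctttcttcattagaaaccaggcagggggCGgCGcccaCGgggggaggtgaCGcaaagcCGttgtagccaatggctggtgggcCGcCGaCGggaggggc
This window holds 23 CG pairs (CG is its own reverse complement, so 1 search covers both strands), and 13.3% of the 32851 promoters listed hold as many or more.

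Hdac10, a class IIb enzyme known as a polyamine deacetylase, had -0.31, -0.29 and -0.29 in nPNP cells, against -0.16, -0.024 and -0.021 in control cells. The nPNP arrays lay close together and below all control arrays. The difference was -0.23 ± 0.09 (SE), with limma's unadjusted p at 0.0356 and adjusted p at 0.740, and it was -0.20 within odd and -0.28 within even slide columns. A second, dimmer Hdac10 probe had the opposite sign, at 0.21, and the mean of both probes differed by -0.0072.

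The rest of classes II and IV lay nearer 0 or could not be tested. Hdac7, a class IIa enzyme, differed by 0.025 with an interval of -0.20 to 0.25. Hdac11, the only class IV enzyme, had -3.42, -5.00 and -3.82 in nPNP cells, against -4.36, -3.90 and -4.16 in control cells, so the nPNP arrays spanned more than the control arrays did. Its difference of 0.056 had the widest interval of any member. Hdac5 and Hdac6, the tubulin deacetylase, had flagged spots on their only probes, and with these kept they differed by -0.12 and 0.089. The nPNP values of Hdac5 then lay below those of control cells, at 1.84, 1.79 and 1.89 against 1.98, 1.98 and 1.92. None of the 5 probes of Hdac9 was above background on any array.

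Of the enzymes that were tested, 4 of 41 (9.76%) had groups without overlap, where 13.4% of all genes did. Hdac4, Hdac10 and Ezh2 had nPNP cells below control cells (3.75% of all genes) and Kdm7a had them above (9.66% of all genes). With flagged spots kept the count was 4 of 49, where 11.0% of all genes had no overlap, and Hdac5 took the place of Ezh2. The same 3 members then passed an unadjusted p below 0.05, 3 of 49, where 5.93% of all genes did.

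**Figure D2:**
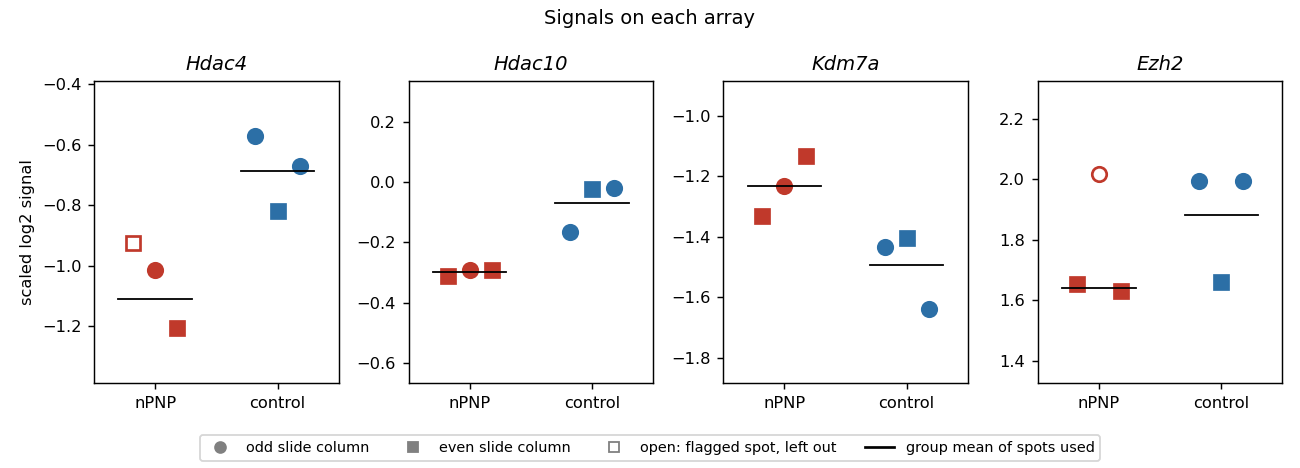
Scaled log2 signal of the probe used on each nPNP array (left, red) and each control array (right, blue) for Hdac4, Hdac10, Kdm7a and Ezh2, with circles for odd and squares for even slide columns, open symbols for flagged spots left out and lines for group means of the spots used. Each vertical axis spans 1 log2 unit. The open circle of Ezh2 on nPNP array 2, at 2.02, lies among the control values.

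All 7 sirtuins were tested and none differed at an unadjusted p below 0.05 in limma. Sirt1, the nuclear deacetylase of histones and transcription factors, had -0.20, -0.29 and -0.21 in nPNP cells, against -0.20, -0.11 and -0.18 in control cells. Sirt6, a chromatin enzyme tied to DNA repair and glycolytic genes, had 0.08, 0.34 and -0.08 in nPNP cells, against 0.23, 0.14 and 0.24 in control cells. Both sets of groups overlapped, and the differences were -0.067 with an interval of -0.27 to 0.14 for Sirt1 and -0.09 with an interval of -0.37 to 0.19 for Sirt6. The mitochondrial sirtuins Sirt3, Sirt4 and Sirt5 differed by -0.011, -0.024 and 0.0084. Sirt2, mainly cytoplasmic, and Sirt7, nucleolar, differed by 0.072 and 0.023.

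Among the lysine demethylases, 10 of 15 were tested and 6 of these had lower and 4, Kdm5b among them, higher signals in nPNP cells. Kdm7a, which removes methyl groups from lysines 9 and 27 of histone H3, gave -1.33, -1.23 and -1.13 in nPNP cells, against -1.44, -1.40 and -1.64 in control cells. Every nPNP array lay above every control array. The difference was 0.26 ± 0.11 (SE), 1.20 times the control signal, with limma's unadjusted p at 0.0399 and adjusted p at 0.740. It was 0.30 within odd and 0.17 within even slide columns, and with the slide column as a block the unadjusted p was 0.0735. A second Kdm7a probe was too dim to be tested, at -5.47, -5.19 and -5.42 in nPNP cells against -5.66, -5.68 and -5.81 in control cells. Its groups did not overlap, but it was well above background on only 1 nPNP array and on no control array. Dim probes leaned upward in nPNP cells, since without the background filter the median of all genes was 0.099, against 0.043 with it.

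The Kdm7a promoter, shown because the gene had the highest difference of the members (RefSeq, GRCm38.p6, chr6:39206774-39207023, minus strand), was nearly the densest in CG pairs of all promoters listed.
Kdm7a promoter: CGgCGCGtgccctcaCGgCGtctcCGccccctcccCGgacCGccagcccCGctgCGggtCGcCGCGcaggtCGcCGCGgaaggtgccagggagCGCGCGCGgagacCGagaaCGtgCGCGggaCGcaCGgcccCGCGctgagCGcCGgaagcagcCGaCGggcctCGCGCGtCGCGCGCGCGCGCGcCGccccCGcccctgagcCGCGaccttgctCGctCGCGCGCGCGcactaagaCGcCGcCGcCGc
It holds 56 CG pairs in 250 bases, a count that 0.006% of the listed promoters reach. Of the 52 members, 42 had a promoter listed, with a median of 20.5 CG pairs against 6 for all genes, and 39 of the 42 lay above that median. Each gene counted by its richest promoter, of 64 listed for the 42 members and 32851 for 27025 genes. The genes compared were not matched to the members for gene type, expression or number of promoters. The counts ran from 2 in Hdac9 to the 56 of Kdm7a. They describe the reference sequence and were not set against any signal.

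The other demethylases lay nearer 0 on the probes used. Kdm1a, the flavin-dependent eraser of H3 lysine 4 methylation, had 2.05, 1.70 and 1.85 in nPNP cells, against 1.87, 1.82 and 1.79 in control cells. Kdm5b, which removes trimethylation of the same lysine, had 2.06 and 1.83 on the 2 unflagged nPNP arrays, against 1.88 and 1.97 on the 2 unflagged control arrays. Both genes overlapped between groups, with differences of 0.039 and 0.018. The direction for Kdm5b was not stable: its flagged spots read 1.94 on nPNP array 3 and 2.25 on control array 1, and keeping them gave -0.092. It was also below 0 in the authors' deposited table, at -0.11, and under array median scaling, at -0.063, and quantile normalization, at -0.038. On the probes used, the largest negative difference was that of Kdm4a, an H3 lysine 9 demethylase, at -0.11 with an interval of -0.38 to 0.16. Kdm2a, Kdm2b, Kdm3a, Kdm4b, Kdm4c and Kdm8 differed by -0.082 to 0.076. For Kdm2a, at 0.076, 2 dimmer tested probes had the opposite sign, at -0.20 and -0.27. The brighter Kdm4c probe, left out for its flagged spots, differed by -0.019 with these kept.

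A total of 5 demethylases were not tested. Kdm6b, which erases H3 lysine 27 trimethylation and so opposes Ezh2, had 0.06, 0.45 and 0.31 in nPNP cells, against 0.27, 0.43 and 0.11 in control cells with flagged spots kept, a difference of -0.0013. Kdm1b and Kdm3b, likewise with flagged spots, differed by -0.039 and 0.032. The single Kdm4d probe was above background on no array. Kdm5a, a paralogue of Kdm5b, had 2 probes of opposite sign with flagged spots kept. The brighter read 2.49, 2.65 and 2.58 in nPNP cells, against 2.49, 2.39 and 2.31 in control cells, and the other read 0.49, 0.77 and 0.69 in nPNP cells, against 1.02, 0.99 and 0.82 in control cells. The direction for Kdm5a therefore depended on the probe.

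**Figure D3:**
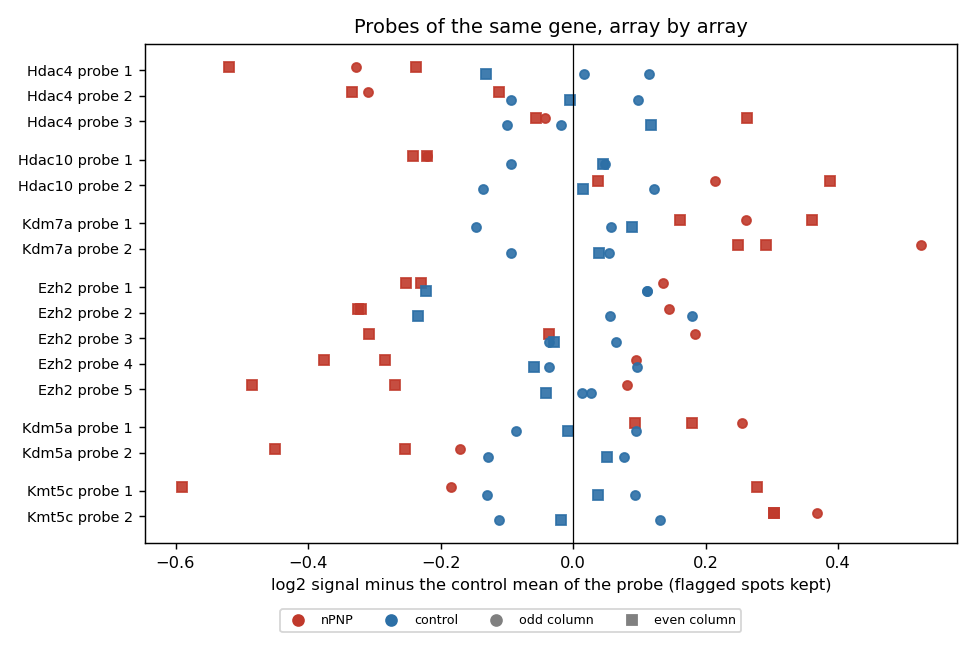
Log2 signal of each probe of Hdac4, Hdac10, Kdm7a, Ezh2, Kdm5a and Kmt5c on each array, minus the mean of that probe on the control arrays, with nPNP arrays in red, control arrays in blue, circles for odd and squares for even slide columns, and flagged spots kept. Probes are numbered from the brightest within a gene. The probes of Hdac10 and of Kdm5a point in opposite directions, and in all 5 Ezh2 probes nPNP array 2 lies above nPNP arrays 1 and 3.

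Several members had more than 1 tested probe, 19 of 41, and in 10 of these the probes did not share a sign. Of the 70 member probes tested, 4 passed an unadjusted p below 0.05 (5.71%), where 6.99% of all probes did, and none passed after adjustment. The probe not already described belonged to Kmt5c, an H4 lysine 20 methyltransferase. It read -1.34, -1.28 and -1.34 in nPNP cells, against -1.51, -1.66 and -1.76 in control cells, a difference of 0.32, while the brighter Kmt5c probe read 0.64, 0.17 and -0.23 in nPNP cells, against 0.23, 0.40 and 0.45 in control cells. The brighter probe thus overlapped between groups and had the opposite sign, at -0.17.

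The 7 KMT methyltransferases on the array were all tested, with 4 differences above 0 and 3 below, counting Kmt2d among those above 0. Kmt2d, a writer of H3 lysine 4 monomethylation at enhancers, had -0.22 and -0.07 on nPNP arrays 2 and 3, against -0.02, -0.38 and -0.31 on the control arrays. The flagged spot of nPNP array 1, left out, read -0.63, below all the others, and keeping it turned the difference from 0.093 to -0.070, with -0.067 in the authors' deposited table. Kmt5a, the sole writer of H4 lysine 20 monomethylation, had 2.20, 2.20 and 2.05 in nPNP cells, against 2.09, 2.03 and 2.14 in control cells. Its flagged probes, left out, differed by 0.19 and 0.13 with all spots kept, in the same direction. Kmt5b, which adds further methyl groups at that lysine, had -2.52, -1.89 and -2.00 in nPNP cells, against -2.01, -1.99 and -1.90 in control cells. All 3 overlapped between groups, and their differences were 0.093, 0.063 and -0.17, with intervals of -0.24 to 0.43, -0.15 to 0.28 and -0.54 to 0.20. The other H3 lysine 4 family members, Kmt2b, Kmt2c and Kmt2e, differed by 0.11, -0.10 and 0.026.

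Polycomb repressive complex 2 trimethylates H3 lysine 27, with Ezh2 or Ezh1 as its catalytic subunit and Suz12 and Eed as its core scaffold and reader of the mark. Ezh2 had 1.65 and 1.63 on nPNP arrays 1 and 3, against 1.99, 1.66 and 1.99 on the control arrays, a difference of -0.24 ± 0.14 (SE) with limma's adjusted p at 0.860. The low values were those of the even slide columns in both groups. With its flagged spot kept, nPNP array 2 read 2.02 in an odd column, the difference was 0.025 within odd and -0.018 within even columns, and the pooled difference was -0.12. The other 4 Ezh2 probes, with flagged spots kept, differed by 0.03 to 0.17 within odd and by -0.34 to -0.09 within even columns.

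Suz12 and Eed also overlapped between groups. Suz12 had -2.51, -2.11 and -2.18 in nPNP cells, against -2.15, -2.27 and -2.15 in control cells, and its brighter probe with flagged spots kept read 1.81, 1.75 and 2.01 in nPNP cells, against 1.90, 1.92 and 1.99 in control cells. Eed had 0.95, 0.77 and 0.62 in nPNP cells, against 0.77, 0.80 and 0.81 in control cells. The differences were -0.079 for Suz12 and -0.014 for Eed, and Ezh1, the paralogue of Ezh2, differed by 0.13 with an interval of -0.27 to 0.53.

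Of the enzymes of DNA methylation, 6 of 8 were tested and none differed at an unadjusted p below 0.05 in limma. Dnmt1, which copies methylation onto the new strand after replication, had 0.76, 0.79 and 0.44 in nPNP cells, against 0.74, 0.80 and 0.96 in control cells. Uhrf1, which brings Dnmt1 to newly replicated CG pairs, had -5.51, -4.45 and -5.21 in nPNP cells, against -5.02, -4.83 and -4.97 in control cells. Both overlapped between groups, at -0.17 with an interval of -0.46 to 0.11 and -0.12 with an interval of -0.67 to 0.43. The Uhrf1 probe used was dim, well above background on 2 of 3 nPNP arrays. The brighter Uhrf1 probe, with flagged spots kept, read 1.96, 2.50 and 2.12 in nPNP cells, against 2.14, 2.29 and 2.26 in control cells, so nPNP array 2 was the highest on both probes.

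Because Dnmt1, Uhrf1 and Ezh2 are expressed with DNA replication, S phase genes are given beside them. Of 13 tested S phase genes, 11 had lower signals in nPNP cells, where 4866 of all 13138 genes did. None of the 13 passed an unadjusted p below 0.05 in limma, and their median difference was -0.15. Their median deviation from the control mean was -0.15, 0.05 and -0.39 on nPNP arrays 1, 2 and 3, against 0.03, -0.06 and 0.03 on the control arrays. Array 2 was again the highest of the nPNP arrays and the only one in an odd slide column. Odd columns thus read 0.05 on the nPNP array, against 0.03 and 0.03 on control arrays. Even columns read -0.15 and -0.39 on nPNP arrays, against -0.06 on the control array. The part of S phase genes in the values of Dnmt1, Uhrf1 and Ezh2 was not tested, nor was that of the slide column in the S phase values. Fewer cells in S phase and less RNA per cell cannot be told apart in bulk RNA.

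The de novo methyltransferases differed little. Dnmt3a had 0.21, 0.15 and 0.10 in nPNP cells, against 0.27, 0.17 and 0.29 in control cells. Dnmt3b had -0.45, -0.72 and -0.57 in nPNP cells, against -0.80, -0.78 and -0.65 in control cells, the smallest p of this role at 0.155 unadjusted in limma. The differences were of opposite sign, -0.088 for Dnmt3a and 0.17 for Dnmt3b, each with an interval across 0, and Dnmt3l, their catalytically inactive partner, differed by less than 0.001.

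Of the TET dioxygenases, Tet3 was the only one tested. It had -4.43, -3.95 and -3.89 in nPNP cells, against -4.01, -4.36 and -4.42 in control cells, with a difference of 0.18 and an interval of -0.22 to 0.57. Tet2 had flagged spots, and with these kept it read -0.83, -0.90 and -0.65 in nPNP cells, against -0.77, -0.94 and -0.90 in control cells. Tet1 was not well above background on all arrays of either group, and its brighter probe read -5.25, -5.23 and -5.22 in nPNP cells, against -5.18, -5.47 and -5.59 in control cells. The groups overlapped for each of these 3 probes.

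Replicate arrays were less alike after exposure. The SD between arrays was larger in nPNP cells for 29 of 41 members (70.7%) and for 65.2% of all genes, with a median SD of 0.15 in nPNP cells against 0.083 in control cells for the members, and of 0.15 in nPNP cells against 0.10 in control cells for all genes. Position on the slide also differed between arrays: nPNP arrays 1 and 3 and control array 2 lay in even slide columns and the others in odd ones. All control arrays and nPNP array 1 lay in slide row 1, and nPNP arrays 2 and 3 in row 2. Slide row was thus partly confounded with exposure, and its part was not tested. Even and odd columns differed at an unadjusted p below 0.05 in limma for 4 of 41 members (9.76%) and for 12.4% of all genes. The members were Hdac11, Sirt5 and Ezh1, higher in even columns by 0.87, 0.41 and 0.34, and Kdm4b, which differed by -0.29. In the same fit, nPNP against control passed for 2 of 41 members, Hdac4 and Hdac10, and for 8.25% of all genes.

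Within slide columns the sign of most differences was not shared. Of the 40 members with values in both kinds of column, 23 (57.5%) had opposite signs in odd and even columns, and 51.0% of all genes did. Kdm4c differed by -0.60 within odd and 0.39 within even columns, and Hdac11 by -0.75 and 0.28. Uhrf1 differed by 0.54 and -0.54 on its dim probe, and by 0.29 and -0.24 on the brighter one with flagged spots kept. Hdac4, Hdac10 and Kdm7a kept their signs in both, which follows from their groups not overlapping and adds nothing to it. Array 2 was the only nPNP array in an odd column, and control array 2 the only control array in an even one.

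**Figure D4:**
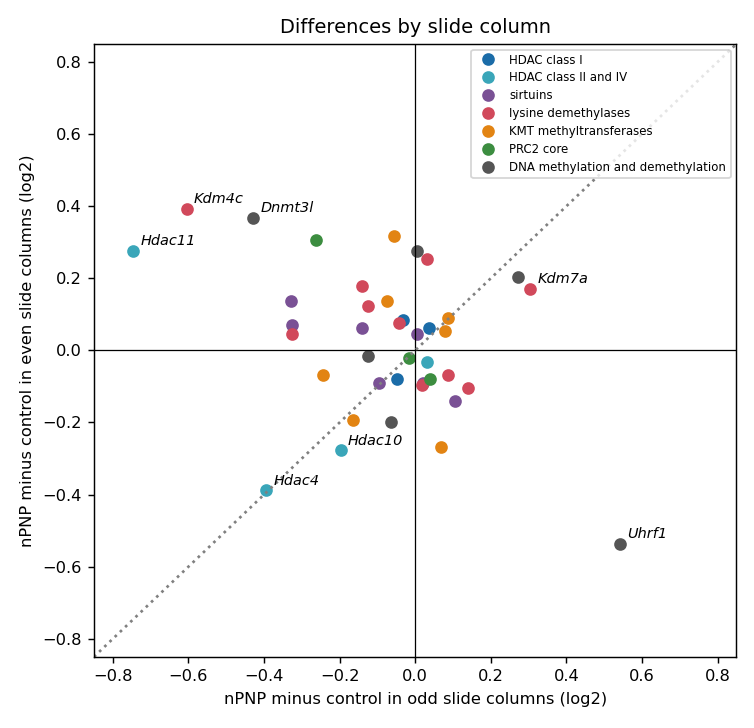
Difference in scaled log2 signal, nPNP minus control, within odd slide columns (horizontal axis) and within even slide columns (vertical axis) for the 40 members with both values, coloured by role, with a dotted line where both are equal. Of the 40 members, 23 lie in the quadrants of opposite sign. Hdac4, Hdac10 and Kdm7a lie in those of equal sign, as genes without overlap between groups must.

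Proteins that work with these enzymes were described from lists of their names. Of 118 such genes, 98 were tested, and none passed after adjustment in limma. At an unadjusted p below 0.05, 3 of 98 (3.06%) passed, where 6.52% of all genes did. Differences were above 0 for 58 of the 98 (59.2%) and for 63.0% of all genes. Rcor2, a corepressor that binds Kdm1a and Hdac1, had -0.03, 0.19 and 0.10 in nPNP cells, against -0.27, -0.63 and -0.51 in control cells. Acly, which makes the acetyl-CoA used for acetylation, had -2.08, -2.08 and -2.17 in nPNP cells, against -2.32, -2.46 and -2.56 in control cells. Both lay above control cells without overlap, with differences of 0.55 and 0.34 and adjusted p at 0.740. Mbd4, a glycosylase that repairs deaminated methylcytosine, differed by -0.35, with -1.71, -1.22 and -1.31 in nPNP cells against -1.08, -1.22 and -0.87 in control cells. Its nPNP values lay below those of control cells without overlap, but the groups nearly met, at -1.2167 and -1.2164.

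The partner lists otherwise lay near 0, beside a median of 0.043 for all genes. The 16 tested subunits of polycomb repressive complex 1, the 8 histone acetyltransferases, the 10 subunits of the COMPASS complexes and the 15 further histone methyltransferases had medians between -0.014 and 0.013. The 5 accessory subunits of polycomb repressive complex 2 had a median of 0.13 and the 20 corepressor subunits a median of 0.045. The 7 arginine methyltransferases stood at 0.015 and the 9 readers and repair enzymes of methylated DNA at 0.030. The 8 enzymes of S-adenosylmethionine, NAD and acetyl-CoA supply stood at -0.0059.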

How the data were processed

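Total RNA from 6 TM3 samples was hybridised to 1-colour Agilent arrays. The deposited scanner files hold intensity values that, per the file headers, came from Agilent Feature Extraction 11.5.1.1 with background subtracted and spatial trends corrected, without scaling between arrays, while the submitters' processing notes name version 10.7. The labels name Cy3, but the files hold red-channel columns only. The authors' deposited table holds log2 values that match the scanner signals after quantile normalization (column median 8.27, uncentred, in the direction of the scanner signal), and served as an alternative.

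Signals were taken as log2 and centred on the 75th percentile of the non-control spots of the same array. Outlier spots were left out. Testing required a probe well above background on the 3 arrays of either group, with 2 or more values in each. Matching unversioned accessions to a RefSeq gene list (GRCm38.p6) named 33767 of 56605 probes, since the scanner files hold no gene names. The brightest tested probe stood for its gene. limma 3.58.1 in R 4.3.3 (lmFit, eBayes, no covariates, two-sided) tested 13138 genes with Benjamini-Hochberg adjustment at 0.05, and 27222 probes one by one. The number of arrays limits the precision. Scripts were tested on simulated data.

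Members and lists were chosen with earlier results of these data known. Per-array values are given for members with an unadjusted p below 0.05, the smallest p of each role, and a core list. Hdac5, Hdac11, Kdm5a and Kmt5c were added after their values were seen. Alternatives were other scalings, backgrounds, filters, probe choices, blocks, complete genes only and each array left out. The normexp correction used the median signal, since the files hold no mean signal. Deviations of samples with the same replicate number had correlations of -0.31, -0.22 and -0.026. Each such pair lay in opposite kinds of slide column, so these values could not settle whether the samples were paired.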

Additional observations from a re-analysis of the deposited data

How the results depend on the processing

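No member passed an adjusted p below 0.05 in limma under any of the 18 alternatives. Over all genes the count of calls was 0 except with the slide column as a block (1 gene, 2 probes) and without single arrays, where it ranged from 0 to 23 genes (23 without nPNP array 1) and from 0 to 59 probes. Members at an unadjusted p below 0.05 numbered 1 with normexp, 0 with a replicate block and 0 to 4 without single arrays (0 without nPNP array 3, 1 without control array 3), and genes numbered 1303 with no background filter and 349 to 1671 without single arrays. The median member difference was -0.074 under array median scaling and 0.046 within even slide columns. Among genes at an unadjusted p below 0.05, the share higher in nPNP cells was 77.1%, against 47.4% under array median scaling, 61.1% under quantile normalization and 57.4% in the authors' deposited table, and 30 of 41 members kept their sign under every scaling. The cause of these shifts was not tested.

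Hdac4 had an unadjusted p below 0.05 in 13, Hdac10 in 11 and Kdm7a in 9 of 18 alternatives, with differences of -0.51 to 0.11, -0.29 to -0.0072 and 0.19 to 0.31 and adjusted p from 0.381 to 1.00. Without control array 3 or nPNP array 3, Kdm7a differed by 0.19 and 0.21 with p above 0.05. Ezh2 had an unadjusted p below 0.05 in limma in 2 of 18 alternatives, with the mean of its probes and without control array 2. Ezh1, Hdac11 and Uhrf1 did so only without nPNP array 2, and Kmt5c and Tet3 only without nPNP array 1. Whether the replicate numbers pair the samples could not be settled. With the replicate block, 604 genes and no member had an unadjusted p below 0.05 in limma.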
